A study of Mus musculus with 3 samples.

Results

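The 4 Hox gene clusters were examined as genomic windows in mouse neural progenitor cells, and every binding interval of Ring1B or Zrf1 that touched a window was taken as a member. The windows, in mm9, were chromosome 6 from 52090000 to 52240000 (Hoxa), chromosome 11 from 96040000 to 96250000 (Hoxb), chromosome 15 from 102740000 to 102880000 (Hoxc) and chromosome 2 from 74480000 to 74620000 (Hoxd). They held 119 of the 11790 Ring1B intervals and 2 of the 11647 Zrf1 intervals. The gene set behind them comprised 38 Hox genes, 10 in Hoxa (Hoxa2 to Hoxa13), 10 in Hoxb (Hoxb1 to Hoxb13), 9 in Hoxc (Hoxc4 to Hoxc13) and 9 in Hoxd (Hoxd1 to Hoxd13).

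The cells were neural progenitors made from E14TG2a, a mouse embryonic stem cell line, and kept in N2 medium with EGF and FGF2. Chromatin was immunoprecipitated with an antibody against Ring1B in 1 library, with one against Zrf1 in another and with rabbit IgG in the third, all from cells of this kind with no further treatment named. The study set the binding profiles of Ring1B and Zrf1 side by side. There was 1 library per antibody and no replicate, so no difference below carries an error between samples and none was tested. Library depth cannot be read from interval lists. The lists give no gene expression, and IgG was not analysed here, so neither the identity of the cells nor the local background could be checked at these windows.

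Hox genes encode homeodomain transcription factors that set position along the head-to-tail axis. Within a cluster they lie in the order in which they are used: low-numbered genes act towards the hindbrain (anterior), high-numbered genes towards the trunk, limb and tail (posterior). The clusters are classic targets of Polycomb repression. Ring1B, the catalytic subunit of Polycomb repressive complex 1, ubiquitylates histone H2A, and Zrf1 (encoded by Dnajc2) is known to bind that ubiquitylated histone. In mammals the CG-rich sequence of many promoters is a known landing platform for Polycomb complexes.

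Promoter sequence is shown first because CG density is a known feature of promoters bound by Polycomb complexes. The table of RefSeq promoters used here (GRCm38.p6) matched 22 of the 38 members, 9 of 10 in Hoxa and 9 of 9 in Hoxd, but too few in Hoxb and Hoxc for any statement on those clusters. In the 250 bases before the gene start, the 10 Hoxa promoters (9 genes) held a median of 15.5 CG dinucleotides (range 3 to 35) and the 10 Hoxd promoters (9 genes) a median of 12.5 (range 2 to 31), against 6 over all 32851 promoters of the table. At least 10 CG were present in 6 of the 10 Hoxa and 7 of the 10 Hoxd promoters, and in 37.8% of all promoters. CG reads the same on both strands, so 1 strand was searched. The 4 sequences below come from the outermost members of these 2 clusters and are printed 5′ to 3′ with each CG in capitals. Their GRCm38.p6 positions cannot be set beside the mm9 intervals, so whether each promoter lay inside a Ring1B interval was not examined.
Hoxa2: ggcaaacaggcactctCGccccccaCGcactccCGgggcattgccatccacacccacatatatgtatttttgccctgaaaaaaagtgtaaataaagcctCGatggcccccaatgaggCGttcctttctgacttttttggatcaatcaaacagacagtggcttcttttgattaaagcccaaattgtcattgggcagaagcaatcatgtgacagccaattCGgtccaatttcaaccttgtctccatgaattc
Hoxa13: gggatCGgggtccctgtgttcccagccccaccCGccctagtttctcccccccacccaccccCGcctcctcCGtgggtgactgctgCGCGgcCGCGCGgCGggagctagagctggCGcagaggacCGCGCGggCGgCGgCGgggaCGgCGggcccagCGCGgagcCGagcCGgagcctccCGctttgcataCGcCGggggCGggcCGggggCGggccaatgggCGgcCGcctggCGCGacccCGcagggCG
Hoxd1: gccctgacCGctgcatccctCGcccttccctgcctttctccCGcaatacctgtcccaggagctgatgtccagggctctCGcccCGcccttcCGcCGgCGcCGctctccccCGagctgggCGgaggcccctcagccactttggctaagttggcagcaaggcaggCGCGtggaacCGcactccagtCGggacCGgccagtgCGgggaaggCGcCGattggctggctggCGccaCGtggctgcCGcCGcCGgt
Hoxd13: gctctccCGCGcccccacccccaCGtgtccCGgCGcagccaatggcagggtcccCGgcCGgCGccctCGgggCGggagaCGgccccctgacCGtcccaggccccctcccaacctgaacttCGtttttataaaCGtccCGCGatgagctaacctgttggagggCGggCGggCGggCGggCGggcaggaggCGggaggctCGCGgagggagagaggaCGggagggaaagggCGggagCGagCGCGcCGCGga

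The Hoxa2 sequence is chr6:52164832-52165081 (minus strand), with 6 CG, and the Hoxa13 sequence is chr6:52260881-52261130 (minus strand), with 35 CG. The Hoxd1 sequence is chr2:74762730-74762979 (plus strand), with 24 CG, and the Hoxd13 sequence is chr2:74667975-74668224 (plus strand), with 31 CG. Among these 4, Hoxa2 had the lowest share of G and C (46.4%, against 71.6% in Hoxd1, 74.4% in Hoxd13 and 80% in Hoxa13). Promoters not printed were lower still at Hoxd4 (40.4%), Hoxd8 (44.4%) and 1 of those of Hoxd11 (44.8%). Counts also varied inside the clusters, from 2 CG at 1 of the promoters of Hoxd11, 3 at Hoxa9 and 3 at Hoxd4 to 24 at Hoxa6 and 28 at Hoxa5.

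Ring1B covered between 39.0 and 54.3% of each Hox window. Hoxa had 81.5 of 150 kb (54.3%) under 30 intervals. Hoxd had 74.0 of 140 kb (52.9%), also under 30 intervals. Hoxc carried 58.1 of 140 kb (41.5%) under 27 intervals, and Hoxb had 81.9 of 210 kb (39.0%) under 32. Hoxa and Hoxb thus carried nearly the same length of Ring1B. The window of Hoxb was longer and held a gap of 45.6 kb between 2 intervals, 21.7% of its length. The order of the clusters depends on the limits: over the occupied span, from the first to the last interval, Hoxd had 64.5%, Hoxa 59.7%, Hoxb 46.9% and Hoxc 46.0%. Together the windows were 46.2% covered, against 0.674% of all mm9 chromosomes, a ratio of 68.5. They make up 0.0241% of the genome and held 1.01% of the Ring1B intervals and 1.65% of the bases under Ring1B.

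**Figure D1:**
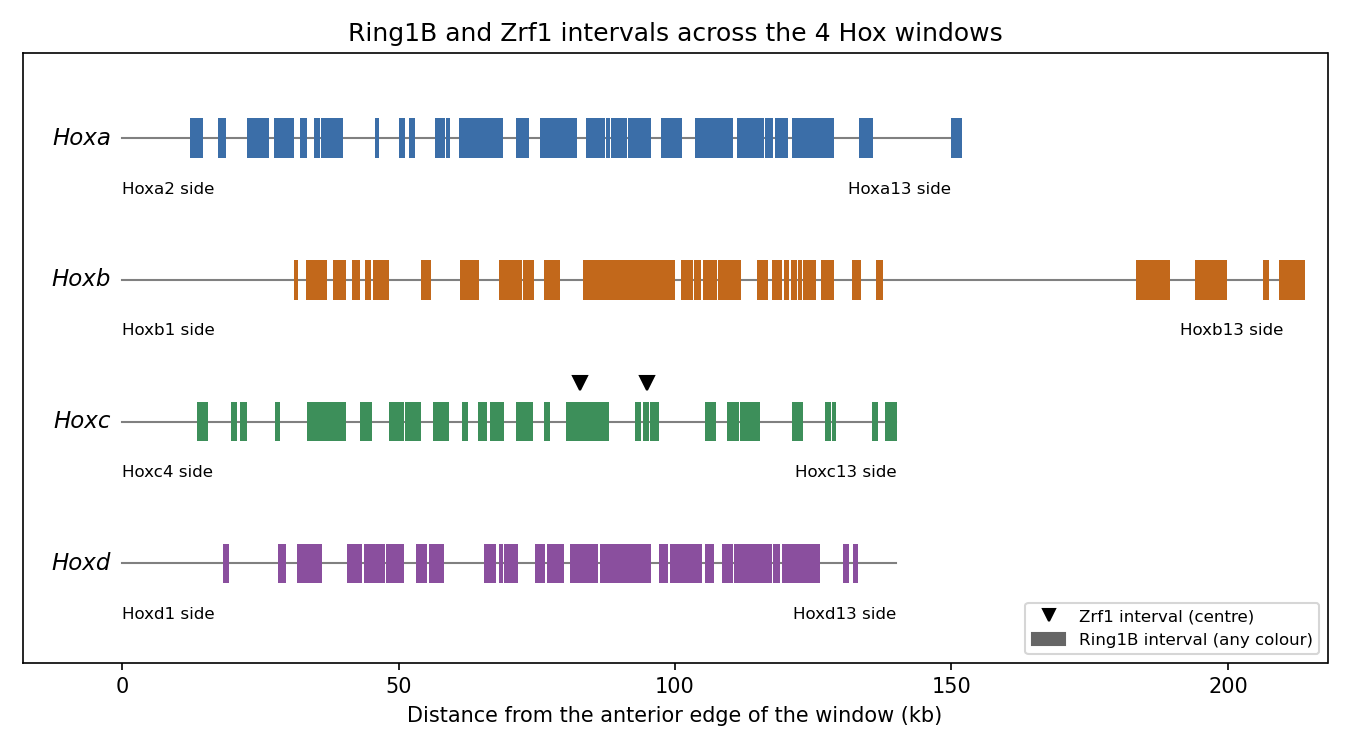
Ring1B intervals (coloured blocks) and Zrf1 intervals (black triangles at their centres) in each Hox window, by distance in kb from the window edge nearest the low-numbered genes; the names at the ends give the orientation and not gene positions. Blocks fill 39.0 to 54.3% of each window, the widest empty stretch of any window is the 45.6 kb gap in Hoxb, and the only triangles are the 2 in Hoxc.

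Tiles of 100 kb along the chromosomes set the Hox windows beside the rest of the genome. At least 20% of a tile was under Ring1B in 20 of 26378 tiles (0.0758%). Of the 11 tiles that touched a Hox window, 7 reached that level, and the lowest of the other 4 had 0%. The 5 most covered tiles all overlapped a Hox window: 64.7% at Hoxd, 62.4% and 33.1% at Hoxa, 55.4% at Hoxb and 35.1% at Hoxc. Of these, the 33.1% tile at Hoxa and the 35.1% tile at Hoxc ran past the window end, and their values include Ring1B outside it. The most covered tile elsewhere, on chromosome 6 from 47600000 to 47700000, reached 27.6%. No Ring1B lay in 73.5% of all tiles.

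Ring1B coverage was lower in the flanks than in the windows on every side, to a different degree in each cluster. Means over a flank do not show where the coverage fell. Within the 200 kb outside each window, coverage was 1.27% on the anterior and 7.01% on the posterior side of Hoxa, 0.434% and 8.45% for Hoxb, 7.69% and 2.13% for Hoxc, and 0% and 0.808% for Hoxd. Hoxd was the most isolated, with the next Ring1B interval 332 kb beyond its anterior edge and 62.2 kb beyond its posterior edge. On the anterior side of Hoxb the next interval was 190 kb away, and on that of Hoxa 133 kb. In Hoxc the anterior side continued into further intervals, the first of 3258 bp at 9.04 kb from the edge. The genes next to the clusters in the RefSeq order are Skap2 and Evx1 (Hoxa), Skap1 and Ttll6 (Hoxb), Smug1 and Calcoco1 (Hoxc), and Mtx2 and Evx2 (Hoxd), anterior and posterior in turn. These genes were not placed against the windows, so a neighbour may lie inside a window and not in its flank.

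**Figure D2:**
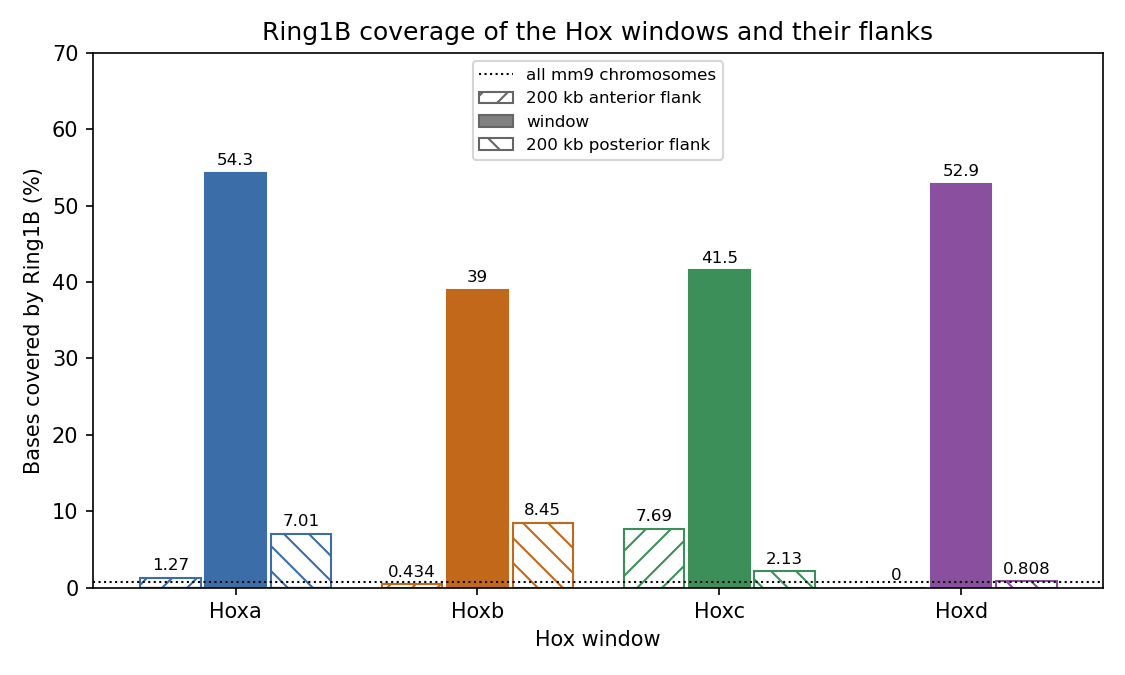
Percentage of bases under Ring1B in each Hox window (solid bars) and in the 200 kb on its anterior and posterior sides (hatched bars), with the mean of all mm9 chromosomes as a dotted line. Windows stand at 39.0 to 54.3%, and all 8 flanks at or below 8.45%.

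The window limits cut through 3 intervals. At the posterior edge of Hoxb an interval of 4596 bp crossed the limit by 3.87 kb, and a further one of 1953 bp lay 4.61 kb outside. At the posterior edge of Hoxa the crossing interval measured 2039 bp and the next outside, of 1193 bp, lay 15.5 kb away. At the posterior edge of Hoxc the crossing interval of 2183 bp reached 0.147 kb past the limit, and the next lay 147 kb away. The intervals nearest the other edges lay 12.3 kb (Hoxa, anterior), 31.0 kb (Hoxb, anterior), 13.5 kb (Hoxc, anterior), 18.2 kb (Hoxd, anterior) and 6.95 kb (Hoxd, posterior) inside.

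Intervals in the Hox windows were wide for the Ring1B list, with a median of 1957 bp and quartiles at 1205 and 3014 bp. The other Ring1B intervals had a median of 1321 bp. Of the 119, 81 (68.1%) were wider than the list median of 1324 bp, against 49.9% of the list, and 12 (10.1%) exceeded 5000 bp, against 0.992%. By cluster the medians were 2197 bp in Hoxa, 2145 bp in Hoxb, 1863 bp in Hoxc and 1817 bp in Hoxd. The medians were close, with ranges that overlapped almost wholly: 575 to 7905 bp, 579 to 12813 bp, 821 to 7655 bp and 782 to 6858 bp.

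The widest interval of each cluster lay away from the window edges. In Hoxb a single interval of 12813 bp, from 96149958 to 96162771, was the third widest of the whole list and lay 87.2 to 100 kb from the anterior edge. An interval of 3812 bp followed it after a gap of about 100 bp. The next widest of Hoxb measured 6260 bp (96060461 to 96066721) and 4596 bp (96036128 to 96040724), both in the posterior group, and the latter crossed the window edge. In Hoxa the 3 widest measured 7905, 6911 and 6826 bp and began at 52150917, 52193543 and 52165540. In Hoxc they measured 7655 bp (102791973 to 102799628), 5707 bp (102839533 to 102845240) and 3661 bp (102764539 to 102768200). In Hoxd the widest measured 6858 bp (74526634 to 74533492), 6848 bp (74493748 to 74500596) and 5914 bp (74515071 to 74520985), all on the posterior side of the middle. The first and last intervals of the windows were smaller, between 868 and 2380 bp except for the 4596 bp interval that crosses the Hoxb edge.

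**Figure D3:**
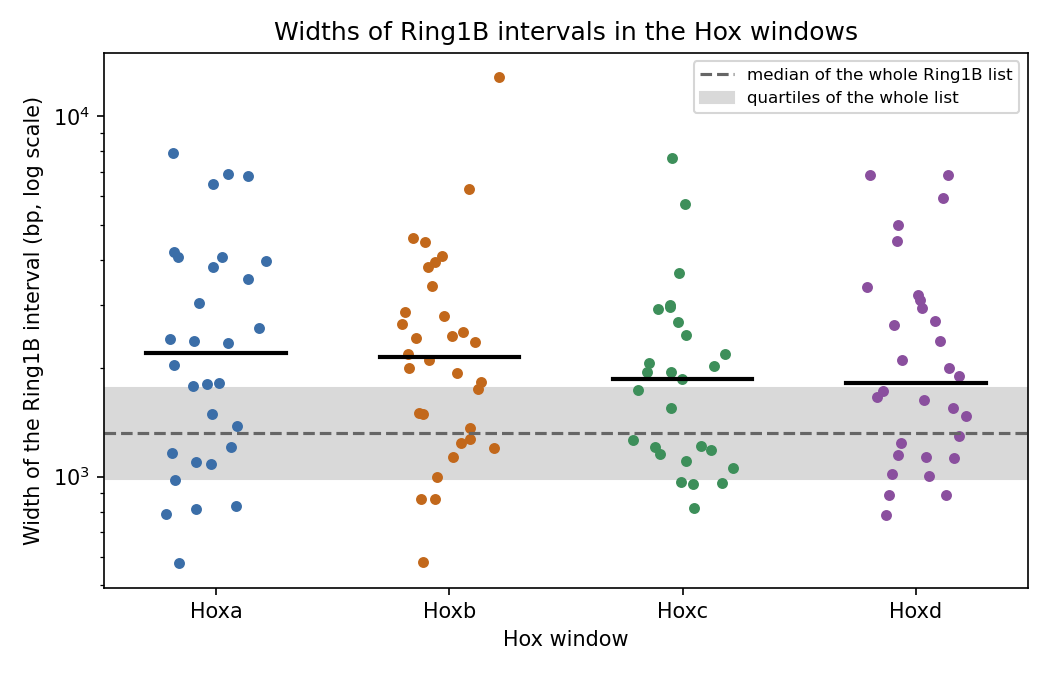
Width in bp (log scale) of each Ring1B interval touching a Hox window, 1 point per interval with the cluster median as a black bar, over the median and quartiles of the whole Ring1B list. All 4 cluster medians (1817 to 2197 bp) lie above the list's upper quartile of 1764 bp, and the highest point is the 12813 bp interval of Hoxb.

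The intervals lay so close that each cluster broke into few domains. Another Ring1B interval lay within 5 kb of 116 of the 119 intervals (97.5%), against 24.4% of the list. When intervals with gaps up to 5 kb were grouped, Hoxa and Hoxd each formed 3 domains and Hoxb and Hoxc 5 each. The main domain spanned 90.1 kb in Hoxa (21 intervals, 70.7% covered), 76.5 kb in Hoxb (20 intervals, 69.8%), 69.6 kb in Hoxc (16 intervals, 56.8%) and 67.5 kb in Hoxd (21 intervals, 77.5%). Hoxd was the most tightly packed, with a median gap of 441 bp, against 939 bp in Hoxb, 1067 bp in Hoxa and 2203 bp in Hoxc. Gaps of at most 100 bp numbered 7 in Hoxd, 4 in Hoxa, 3 in Hoxc and 2 in Hoxb. With gaps up to 1 kb bridged, the longest run was 25.3 kb in Hoxa, 17.8 kb in Hoxd and 16.7 kb in Hoxb. In Hoxc it was 7.66 kb, which is a single interval, so Hoxc was the most fragmented cluster.

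The longest gap between 2 neighbouring intervals lay in a different place in each cluster. Stretches between a window edge and the outermost interval are not counted as gaps, and at the anterior ends of Hoxc (13.5 kb) and Hoxd (18.2 kb) they were longer than the gaps given here. Hoxb had a gap of 45.6 kb (96066721 to 96112328), 138 to 183 kb from the anterior edge and 21.7% of its window. It separated a posterior group of 5 intervals from the rest of the cluster. In the mouse genome a long stretch without other Hox genes parts Hoxb13 from Hoxb9, but the mm9 positions of these genes were not used here and the gap was not placed against them. The longest gap was 14.1 kb in Hoxa, just inside the posterior edge (52225817 to 52239934). In Hoxc it was 8.32 kb (102774535 to 102782855), between intervals of 1863 and 1744 bp. In Hoxd it was 8.77 kb (74591852 to 74600619), next to the outermost anterior interval.

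Each window was cut at its middle into an anterior and a posterior side. By this cut the sides differed most in Hoxd. In Hoxd the posterior side was 69.3% covered and the anterior side 36.4%, a difference of -32.8 percentage points (anterior minus posterior). The posterior side lies towards Hoxd13, a gene known for limb and digit patterning. Genes were not placed in it, and it may also hold the neighbouring gene Evx2. The anterior side includes the 18.2 kb without Ring1B next to the window edge. In Hoxa the values were 63.7% and 45.0% (-18.7 points), and in Hoxc 43.3% and 39.7% (-3.60 points). Hoxb ran the other way, with 33.0% posterior and 45.0% anterior (12.0 points), and the 45.6 kb gap lies wholly on its posterior side. These values depend on where a window begins and ends. Over the occupied span the difference was -31.2 points in Hoxd, -4.06 in Hoxa, 7.06 in Hoxc and 37.1 in Hoxb, so Hoxb differed most there. Hoxb turned to -45.7 points in the outer 30 kb of the window and to -7.43 in the outer 30 kb of the occupied span. Of the 4 clusters, Hoxd alone kept its direction in all 4 alternatives run, with values from -25.9 to -48.3 points. In Hoxa the outer 30 kb of the occupied span gave 21.1 points, a reversal that takes in the 14.1 kb gap.

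Each window was divided into 10 equal segments, numbered from the anterior end. Coverage was at most 15.9% in segment 1 of every window and took a different course in each. Hoxa rose unevenly, with 15.9% in segment 1, 53.6% in segment 2, 38.2% in segment 4, 85.2% in segment 6 and 72.5% in segment 7. It peaked at 89.9% in segment 8 and fell to 5.89% in segment 10. Hoxb peaked at 92.4% in segment 5, had 0% in segment 8 and returned to 38.0% in segment 10. Hoxc stayed between 53.3 and 58.3% from segment 3 to segment 7 and ended at 35.5%. Hoxd started with 0%, reached 79.3% in segment 4, dipped to 43.3% in segment 5 and peaked at 94.2% in segment 9. Segment 10 thus still carried 38.0% in Hoxb and 35.5% in Hoxc, against 5.89% in Hoxa and 15.4% in Hoxd. In Hoxa it lay almost wholly in the 14.1 kb gap. Segments 1 and 10 are margins of the windows and were not placed against genes. Their values therefore do not give the coverage at the outermost Hox genes.

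**Figure D4:**
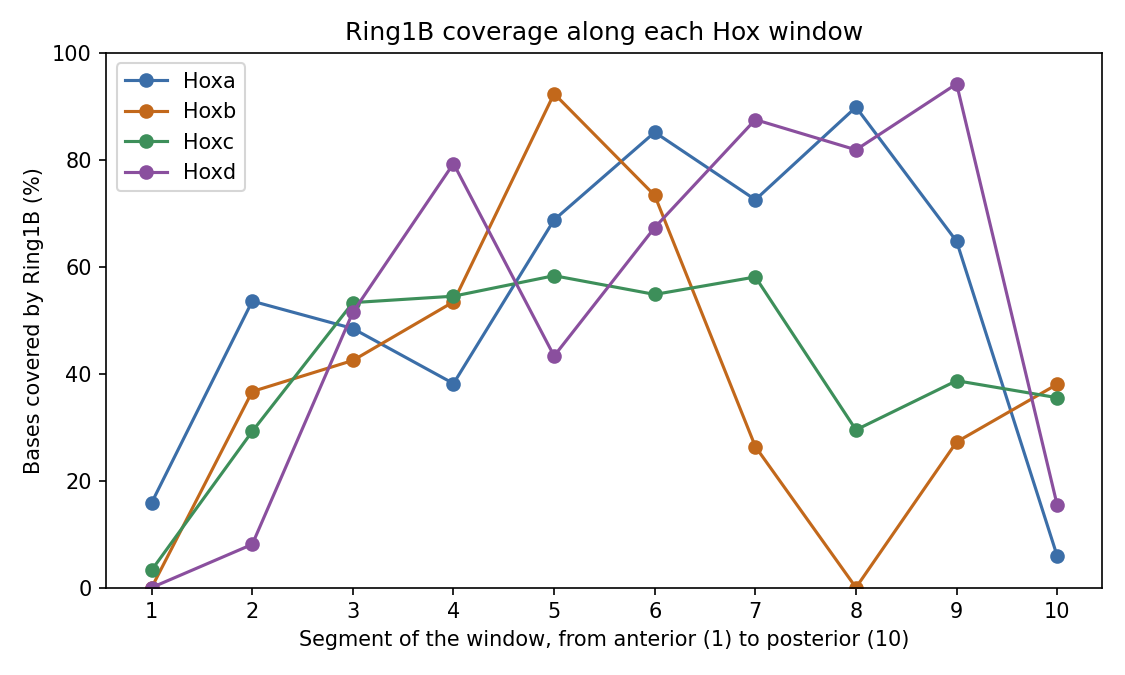
Percentage of bases under Ring1B in each of 10 segments of a Hox window, from anterior (1) to posterior (10), with 1 line per cluster; segments are 14 kb (Hoxc, Hoxd), 15 kb (Hoxa) or 21 kb (Hoxb) long. Hoxa and Hoxd peak in segments 8 and 9, Hoxb in segment 5 with 0% in segment 8, and Hoxc has no segment above 58.3%.

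Zrf1 intervals were found in Hoxc only, as far as the 4 windows go. The Hoxa, Hoxb and Hoxd windows held 0 Zrf1 intervals each and the Hoxc window 2. Over 640 kb the mean genome density of 4.39 Zrf1 intervals per Mb gives 2.81 intervals, so a total of 2 (3.12 per Mb) is no shortage per base, and 0 in a single window is not informative.

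The 2 Zrf1 intervals of Hoxc were narrow and lay wholly inside Ring1B intervals. In the Zrf1 list 17.0% overlapped Ring1B at all, but Ring1B covered 41.5% of this window and 0.674% of mm9. It covered 54.8% and 58.1% of the window segments that held the 2 Zrf1 intervals, so their overlap with it is not informative. The first, of 601 bp (102784690 to 102785291), lay inside a Ring1B interval of 1262 bp (102784615 to 102785877) and covered 47.6% of it. The second, of 757 bp (102796782 to 102797539), lay inside the widest Ring1B interval of the cluster, of 7655 bp, covered 9.89% of it and was centred 1360 bp from its centre. Both were narrower than the Zrf1 list median of 796 bp, with 16.6% and 44.3% of the list narrower still. They were 11.5 kb apart, 94.7 and 82.5 kb from the anterior edge, and so on the posterior side of the middle, towards Hoxc13.

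Outside the windows, the nearest Zrf1 intervals lay off Ring1B in 3 clusters. The closest to Hoxd was a 697 bp interval (74628562 to 74629259) 8.56 kb beyond the anterior edge, and the closest to Hoxb a 614 bp interval (96030297 to 96030911) 9.09 kb beyond the posterior edge. The closest to Hoxa was a 617 bp interval (52047492 to 52048109) 41.9 kb beyond the anterior edge. None of these 3 overlapped Ring1B, as was true of most of the Zrf1 list, of which 17.0% overlapped it. The closest outside Hoxc, a 1513 bp interval 162 kb beyond the posterior edge, lay wholly under Ring1B. On the posterior side of Hoxd no Zrf1 interval lay within 955 kb.

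Relative to the amount of Ring1B, Zrf1 was sparse in the Hox clusters. Of the 119 Ring1B intervals, 2 overlapped Zrf1 (1.68%, exact binomial 95% interval 0.204 to 5.94%, counting error only), against 16.6% of the list. Both were in Hoxc, where they made 2 of 27. Within 5 kb of a Zrf1 interval lay 4 of the 119, against 24.6% of the list. In bases, 1358 bp or 0.460% of the Ring1B sequence in the windows was also under Zrf1, against 11.8% of all Ring1B sequence.

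Taken as sets, Ring1B intervals in other regions with closely spaced or dense Ring1B overlapped Zrf1 more often. Among the 2759 Ring1B intervals elsewhere that had another within 5 kb, 14.3% overlapped Zrf1. In the 13 tiles of 100 kb outside the Hox windows that were at least 20% covered by Ring1B, 14 of 108 intervals did (13.0%, exact 95% interval 7.27 to 20.8%). At least 1 Zrf1 interval lay in 8 of those 13 tiles (61.5%), against 27.4% of all tiles. The spread was uneven: 2 adjacent tiles, on chromosome 6 from 47600000 to 47800000, held 2 and 7 Zrf1 intervals. The dense tiles without any included that on chromosome 17 from 86000000 to 86100000 (25.1% covered), so a lack of Zrf1 was not particular to Hox tiles. Of the 7 Hox tiles at that level, 1 held a Zrf1 interval inside its window and 1 more held the interval 9.09 kb outside Hoxb. Neighbouring intervals are not independent, all Hox overlaps come from 1 cluster, and the difference was not tested.

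**Figure D5:**
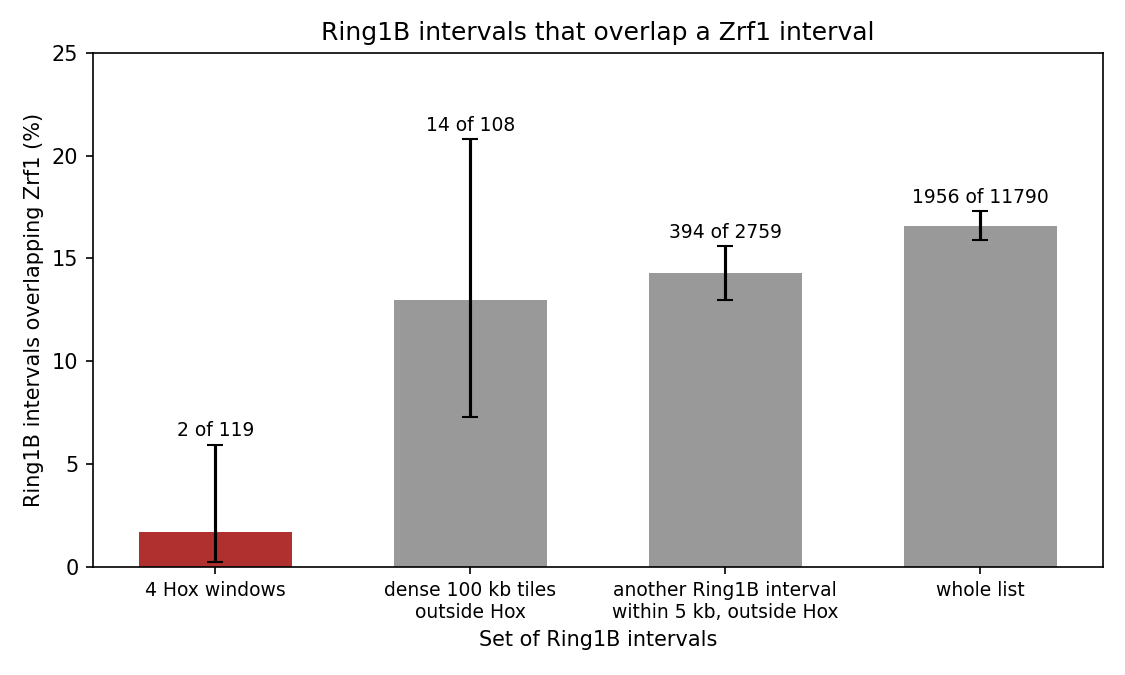
Percentage of Ring1B intervals overlapping a Zrf1 interval by at least 1 bp in the 4 Hox windows, in tiles of 100 kb outside them with at least 20% Ring1B coverage, among intervals outside them with another within 5 kb, and in the whole list; bars carry exact binomial 95% intervals, which cover counting error only. The Hox value is 1.68% (2 of 119) and the other sets stand at 13.0 to 16.6%.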

How the data were processed

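Chromatin immunoprecipitation sequencing gave 2 interval lists, 1 for Ring1B and 1 for Zrf1, each tied to a library through the antibody it is named for. The authors deposited each list with 3 columns (chromosome, start, end) and neither scores nor p-values. Per the submitters' processing notes, Bowtie 0.12.7, MACS 1.4.2 and the build mm9 were used. Threshold, control and filters shape the number, width and splitting of intervals, and are not stated in the sources used here.

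An interval was a member if it overlapped a window by at least 1 bp, and width was end minus start. Coverage counted only bases inside the window, while widths and gaps used whole intervals. mm9 lengths came from GenomeInfoDb 1.38.1. Tiles of 100 kb ran along the autosomes and the X chromosome. Gene order, and with it the anterior end, came from RefSeq genes of GRCm38.p6, in which all 38 members were found. No coordinates were converted, so gene starts were not placed in intervals. Scripts ran in Python 3.11.15 with matplotlib 3.10.9, SciPy 1.17.1 and NumPy 2.4.6. Coverage equalled that of bedtools 2.31.1, and the code was tested on simulated data.

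Windows, members and lists were chosen with earlier results of these data known. Named intervals were, in each window, the 3 widest, the outermost, those beside the longest gap, and every Zrf1 interval or the nearest outside. The dense tiles, the promoter sequences and the sets compared with the Hox windows were chosen after the lists had been seen.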

Additional observations from a re-analysis of the deposited data

How the results depend on the processing

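No paired analysis was possible because each antibody had 1 library. The planned count of gene starts in Ring1B intervals was not run, since no mm9 annotation was at hand, and the lists hold no score for a stricter threshold. Filling gaps up to 100 bp and counting starts from 1, both added after the data were seen, gave coverage of 54.5 and 54.3% in Hoxa, 39.1 and 39.0% in Hoxb, 41.6 and 41.5% in Hoxc, and 53.0 and 52.9% in Hoxd. In the order Hoxa, Hoxb, Hoxc, Hoxd, Ring1B coverage was 44.6, 35.5, 34.2 and 41.1% with windows extended by 20 kb, 59.7, 46.9, 46.0 and 64.5% over the occupied span, 48.6, 35.1, 33.0 and 45.3% with intervals at least as wide as the list median, and 57.4, 41.9, 42.9 and 56.3% with gaps up to 1 kb filled. Hoxd thus exceeded Hoxa over the occupied span, and Hoxb exceeded Hoxc with extended windows, over the occupied span and with wide intervals. With gaps up to 1 kb joined, the intervals numbered 16 in Hoxa, 16 in Hoxb and 11 in Hoxd, and with wide intervals 16 in Hoxc. Extended windows took in 1 Zrf1 interval at Hoxb and 1 at Hoxd, and wide intervals left 0 Zrf1 intervals in Hoxc. Ring1B intervals counted as on Zrf1 were 0 with 50% of the interval covered, and 4 with Zrf1 within 1 kb or within 5 kb. Anterior minus posterior coverage, in percentage points and the same order, was -4.06, 37.1, 7.06 and -31.2 with the occupied span cut at its middle, -0.607, -45.7, -23.5 and -48.3 in the outer 30 kb of the window, 21.1, -7.43, 1.02 and -25.9 in the outer 30 kb of the occupied span, and -23.5, 13.4, -2.42 and -26.4 with wide intervals. The direction reversed once in Hoxa, 2 times in Hoxb and 2 times in Hoxc, and not in Hoxd. What causes these shifts was not tested. With depth unknown, a missing interval is no evidence of missing binding.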
